A study of Mus musculus with 4 samples.

Results

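The genes described here are 36 genes of the cell cycle and of DNA replication, chosen as a list of gene symbols for the parts of the cycle and measured in the left ventricle of mice labelled WT or STIM1KO. A platform annotation paired probes with 34 of them, each with 1 probe. No named probe was found for Ccnd1 and Ccnb1. The probe of Bub1 had an empty cell on 1 array, so 33 genes had a value on all 4 arrays, out of 14039 genes in the whole table. They fall into 12 G1 regulators, 10 replication genes and 11 mitosis genes.

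The tissue came from male C57BL/6 mice of 14 weeks. There were 4 groups with 1 array each. WT sham was wild-type tissue after a sham operation, WT TAC was wild-type tissue after transverse aortic constriction (TAC), and STIM1KO sham and STIM1KO TAC were the same operations in STIM1 knockout mice. In TAC the aorta is narrowed by a ligature, which loads the left ventricle with pressure. The labels give a wire of 0.3 mm for all 4 groups. Surgery was done at 10 weeks of age and tissue was taken 4 weeks later. The labels give average ratios of heart weight to body weight, without a unit, of 4.1 and 6.7 for WT (sham, TAC) and 4.5 and 4.9 for STIM1KO (sham, TAC). No label names the STIM1 allele, the cells that lack the protein, or whether an array held RNA of 1 mouse or of a pool.

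With 1 array per group there are no replicates, so no test was run and every difference compares arrays rather than conditions. A value is a quantile-normalized intensity of 1 probe, and a log2 difference is the log2 of the ratio of 2 such values. Intensities of different probes cannot be set against each other as amounts of RNA. A gene is called bright where its mean over the arrays reached 4.87 in log2 units (an intensity of 29.3), which is the median gene, and dim otherwise. Among dim genes the differences spread more widely. Their SD across genes was 0.48 between the sham arrays and 0.59 between the TAC arrays, against 0.29 and 0.42 for bright genes.

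The labels were checked first. Stim1 had intensities of 41.6 and 33.9 for WT (sham, TAC) and 20.7 and 13.8 for STIM1KO (sham, TAC), so both STIM1KO arrays were below both WT arrays, on a dim probe. The labels do not say which part of Stim1 was altered, so this probe may or may not report on it. Of 8 cardiac muscle markers 7 were bright, among them Tnnt2, the cardiac troponin T gene, between 33602.5 and 58086, and Ryr2, the calcium release channel, was dim on every array, between 2.77 and 5.57. Of 8 lymphocyte markers with 4 values none was bright. No marker of any of the 7 cell type lists was at 0. The STIM1KO TAC array stood apart from the others in its spread. It held the highest or the lowest of the 4 values for 36.8% and 33.6% of all genes.

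Cells divide in an ordered cycle. D-type cyclins with Cdk4 and Cdk6, and E-type cyclins with Cdk2, phosphorylate the retinoblastoma protein Rb1 and free E2F factors, which switch on the genes of DNA replication. Replication needs the Mcm helicase, the clamp Pcna and a supply of nucleotides, and mitosis is driven by Cdk1 with A- and B-type cyclins and by Aurora and Polo kinases. In the adult heart most cardiac muscle cells have left the cycle, and much of the division under pressure overload takes place in other cells. In whole tissue, fewer cells of a type and less RNA per cell cannot be told apart.

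Most of the list was dim. Of the 33 genes, 12 were bright, namely Ccnd2, Ccnd3, Cdk2, Cdk4, Cdkn1c and Rb1 among the G1 regulators, Mcm4, Mcm6, Mcm7, Pcna and Rrm1 among the replication genes, and Aurkb alone among the mitosis genes. The other 21 were dim, and 10 of these belong to mitosis. Mcm6 and Mcm4 lay just above the limit, with mean intensities of 34.4 and 39.5, and Cdk1 and Tyms just below, with 26.6 and 24.3. The Bub1 probe, for a kinase of the spindle checkpoint, was empty on WT sham, and its other deposited intensities were 2.25 (WT TAC), 2.07 (STIM1KO sham) and 3.94 (STIM1KO TAC).

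**Figure D1:**
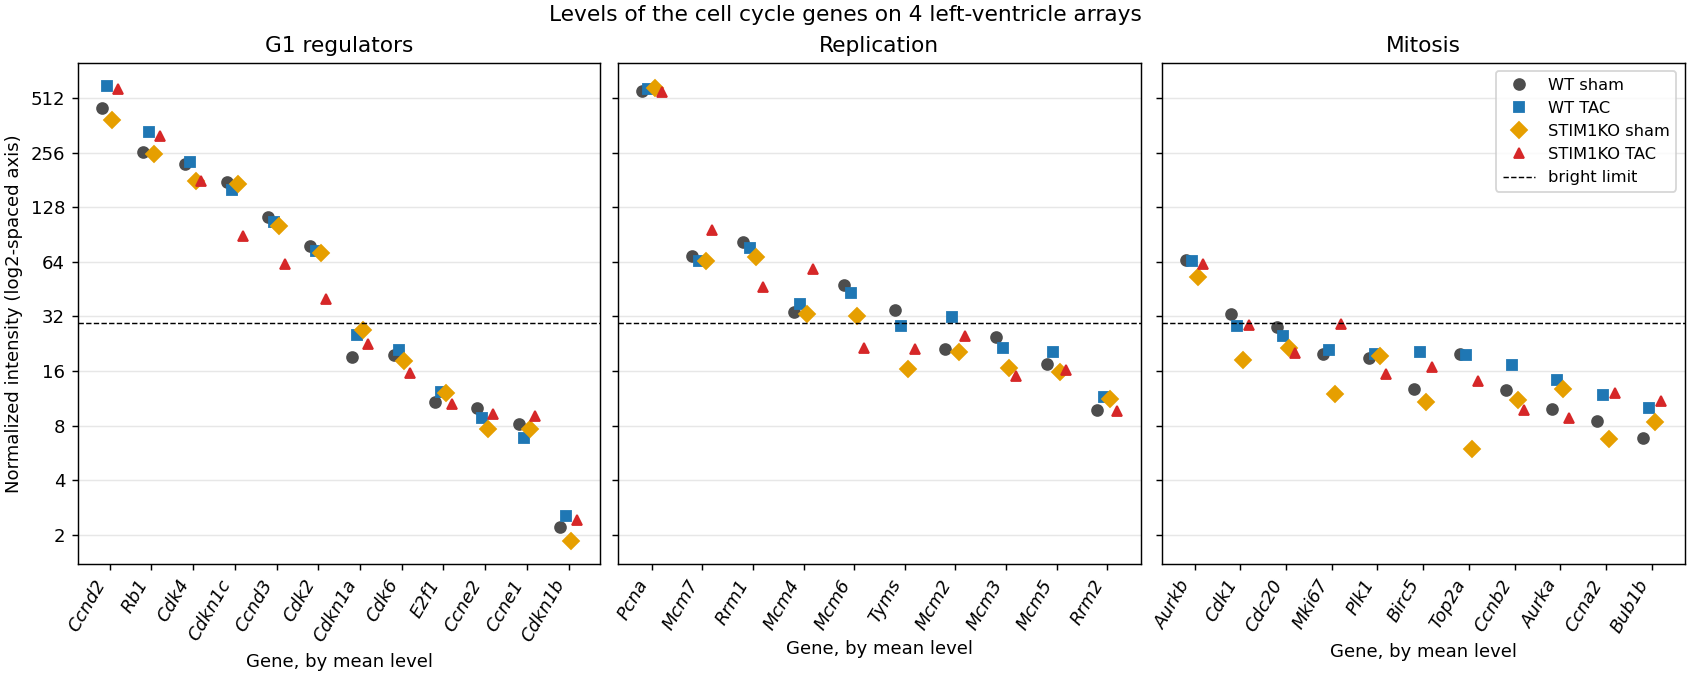
Normalized intensity of each gene on the 4 arrays, on a log2-spaced axis, in panels for G1 regulators, replication and mitosis, with 1 point per array and a dashed line at the bright limit of 29.3. Top2a on STIM1KO sham, at 5.97, is the value farthest from the other 3 of its gene, and Pcna is nearly level across the arrays.

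The pattern seen most widely in the list was a low value on a STIM1KO array. For 30 of the 33 genes the lowest of the 4 values was on STIM1KO sham (16 genes) or STIM1KO TAC (14 genes), against 54.3% of all genes on either. The highest value was on a WT array for 25 genes, against 43.5% of all genes. All 12 bright genes had their lowest value on a STIM1KO array, with 6 on each. With median centring in place of quantile normalization 28 of 33 genes, and 11 of the 12 bright ones, had their lowest value on a STIM1KO array, and with values as deposited 28 of 33 and 12 of 12. The exceptions under quantile normalization were Cdkn1a and Bub1b, lowest on WT sham, and Ccne1, lowest on WT TAC. These counts were made after the values were seen.

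**Figure D2:**
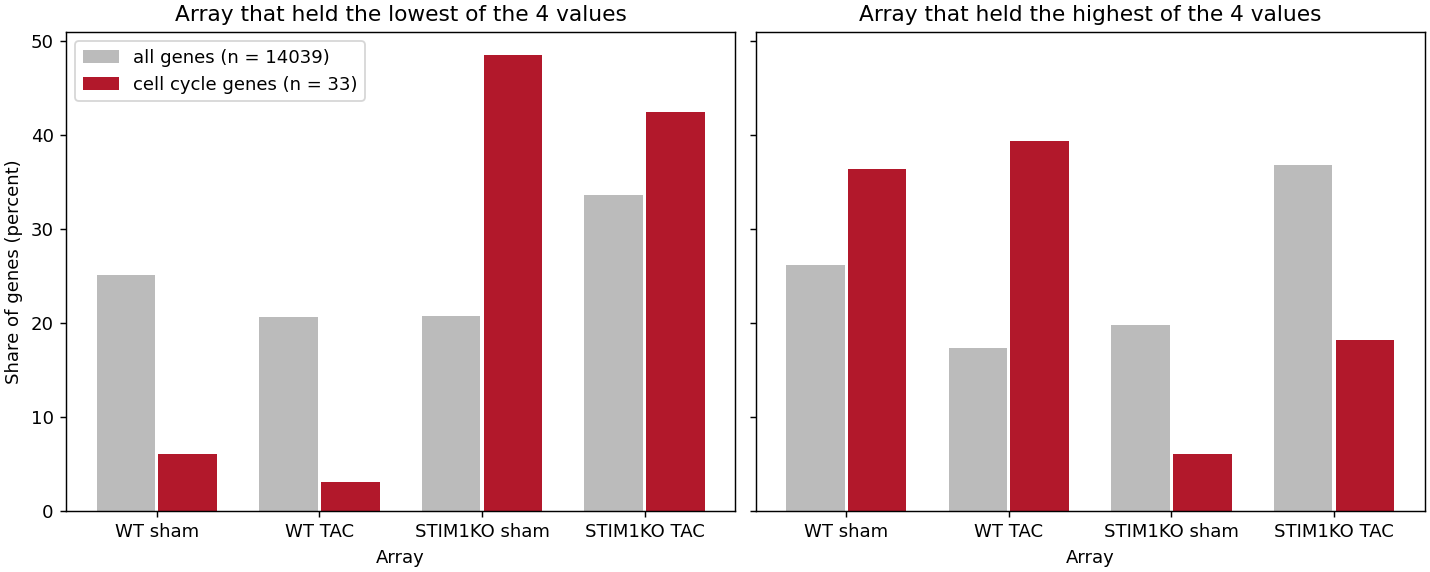
Share of genes, in percent, whose lowest value (left) or highest value (right) of the 4 was on each array, for all 14039 genes in grey and for the 33 cell cycle genes in red. STIM1KO sham held the lowest value of 48.5% of the cell cycle genes against 20.7% of all genes, and STIM1KO TAC of 42.4% against 33.6%.

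Counted by sign, 26 of the 33 genes were below 0 in STIM1KO sham against WT sham, where 50.7% of all genes were, and 25 were below 0 in STIM1KO TAC against WT TAC, where 47.8% of all genes were. These comparisons share no array. In both of them 19 genes were below 0, against 29.1% of all genes, and 1, Bub1b, was above 0 in both, against 30.5% of all genes. Of the bright genes 9 of 12 were below 0 in both, against 30.4% of bright genes overall. With median centring these counts were 17 of 33 and 7 of 12. The differences were small for most genes. The median was -0.16 between the sham arrays and -0.28 between the TAC arrays, beside medians of -0.01 and 0.03 over all genes.

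Markers of some other cell types were lower in the same comparisons. Of 12 endothelial markers, 11 were below 0 between the sham arrays and 10 between the TAC arrays, and their summed intensity ran from 2615 on STIM1KO TAC to 4019 on WT sham, with 2902 on STIM1KO sham and 3721 on WT TAC. Of 11 fibroblast markers, 9 and 7 were below 0, and the sum was lowest on STIM1KO TAC, at 10763.5, and highest on WT sham. A sum over probes mostly follows its brightest probes and is not an amount of RNA. Here these were Gsn (8111 on WT sham, 4373 on STIM1KO TAC) and Dcn (3279 and 1433). Col1a2, Dpt and Mgp were higher on STIM1KO TAC than on WT sham. Of the 11 macrophage markers with 4 values the counts were unlike, with 9 below 0 between the sham arrays and 3 between the TAC arrays. Their sum was 2416 and 2541 for WT (sham, TAC) and 2117 and 2744 for STIM1KO (sham, TAC). By sign, the remaining lists were not mostly below 0. Above 0 were 4 of 7 smooth muscle and pericyte markers, 4 of 8 lymphocyte markers and 2 of 3 erythroid markers in each comparison. The smooth muscle and pericyte sum was 1643 and 1351 for WT (sham, TAC) and 1738 and 998 for STIM1KO (sham, TAC). The lymphocyte sum was also lowest on STIM1KO TAC, at 72.8, and the erythroid and cardiac muscle sums were highest there, at 175 and 244648. Of 8 cardiac muscle markers 6 were above and 0 below 0 between the sham arrays, and 3 above and 4 below between the TAC arrays. Myl2 and Mb were at exactly 0 between the sham arrays, and Mb between the TAC arrays. Quantile normalization gives equal ranks the same value, so the brightest probes, which carry this sum, share a few values. The part of these cells in the cell cycle values was not tested.

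**Figure D3:**
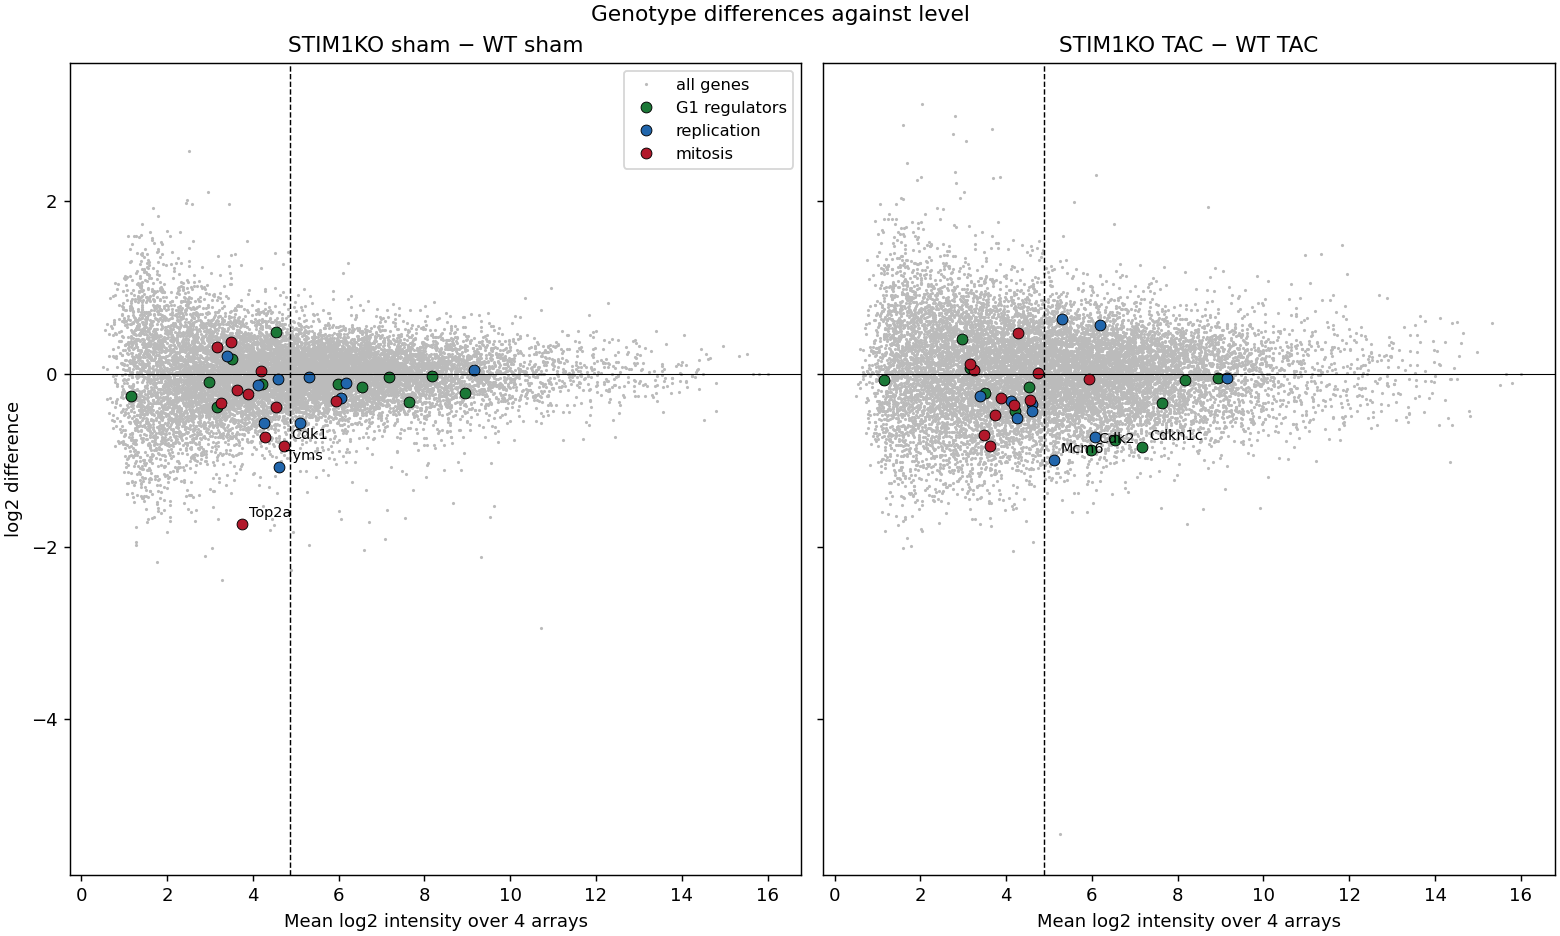
log2 difference of STIM1KO from WT after sham operation (left) and after TAC (right) against the mean log2 intensity over the 4 arrays, for all genes in grey and the cell cycle genes in colour, with the bright limit as a dashed line. Grey points widen to the left of the limit, where 21 of the 33 coloured points lie, and Top2a and Tyms on the left and Mcm6 on the right are the coloured points at 2-fold.

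The G1 regulators are the gatekeepers of the cycle. None of the 12 reached 2-fold in any of the 5 comparisons, where 13.9% of all genes and 4.05% of bright genes did in at least 1. The 6 bright ones were all below 0 in STIM1KO against WT after both operations, beside 30.4% of bright genes. That count was 4 of 6 between the sham arrays with median centring, where Cdkn1c and Rb1 turned above 0 from -0.04 and -0.03. The larger differences among the bright ones lay on 1 array. Cdkn1c, an inhibitor of cyclin-dependent kinases, had 177 and 160 for WT (sham, TAC) and 173 and 89.0 for STIM1KO (sham, TAC). Cdk2, the kinase partner of E-type cyclins, had 77.9, 73.4, 71.6 and 39.7 in the same order. Ccnd3, a D-type cyclin, had 112 and 106 for WT (sham, TAC) and 101 and 62.4 for STIM1KO (sham, TAC). In each of these the first 3 arrays lay close together and STIM1KO TAC lay lowest, at log2 differences from WT TAC of -0.84 for Cdkn1c, -0.89 for Cdk2 and -0.76 for Ccnd3. An inhibitor of the cycle and drivers of it were thus low together on that array.

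Ccnd2 and Rb1 were instead higher on the TAC arrays than on the sham arrays. Ccnd2, another D-type cyclin, had 448 and 597 for WT (sham, TAC) and 385 and 577 for STIM1KO (sham, TAC). Both TAC arrays were above both sham arrays, by 0.41 in WT and 0.58 in STIM1KO on the log2 scale. Rb1, the brake on E2F factors, had 258, 332, 253 and 317 in that order, with TAC above sham by 0.37 and 0.33. Cdk4, the catalytic partner of D-type cyclins, was lower on both STIM1KO arrays. It had 222 in WT sham and 226 in WT TAC against 178 in STIM1KO sham and 179 in STIM1KO TAC. Its response to TAC was 0.03 in WT and 0.01 in STIM1KO, the latter turning below 0 with median centring.

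The dim G1 genes ranged from 1.85 to 26.8 in intensity and had no common order. Cdkn1a, the p53-dependent inhibitor p21, had 19.1 and 25.2 for WT (sham, TAC) and 26.8 and 22.6 for STIM1KO (sham, TAC). WT sham was its lowest array, 0.49 below STIM1KO sham on the log2 scale. Of 18 other genes of the p53 response with 4 values, 9 were above 0 and 9 below in that comparison, with a median of -0.03, and none reached 2-fold in any comparison. Cdk6, the second kinase of D-type cyclins, ran from 15.6 on STIM1KO TAC to 21.0 on WT TAC. Ccne1 and Ccne2, the E-type cyclins, lay between 6.85 and 10.03, and the 4 values of E2f1, the founding E2F factor, between 10.5 and 12.3. Cdkn1b, the inhibitor p27, was near the bottom of the measured range, between 1.85 and 2.54, and its order is not interpreted.

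Replication genes did not move as a block. For all 10 the lowest value was on a STIM1KO array under quantile normalization, against 54.3% of all genes. With values as deposited, Rrm2 was lowest on WT sham, at 9.72 against 10.04 on STIM1KO TAC. Below 0 were 8 of the 10 between the sham arrays and 8 between the TAC arrays, beside 50.7% and 47.8% of all genes. Pcna, the sliding clamp of DNA polymerase, had 562 and 572 for WT (sham, TAC) and 579 and 554 for STIM1KO (sham, TAC), a total range of 1.04-fold. Rrm1, the large subunit of ribonucleotide reductase, had 82.7, 76.7, 68.2 and 46.4 in the same order. It was lower on each STIM1KO array than on either WT array, by 0.73 on the log2 scale between the TAC arrays. Rrm2, the small subunit of that enzyme, was dim and lay between 9.63 and 11.5 on all arrays.

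The Mcm proteins, subunits of the ring-shaped helicase that opens DNA, differed among themselves. Mcm6 had 47.6 and 42.9 for WT (sham, TAC) and 32.0 and 21.4 for STIM1KO (sham, TAC). Both STIM1KO arrays were below both WT arrays, and the difference between the TAC arrays, -1.001, was just at 2-fold. It was -0.99 with median centring, -0.98 with values as deposited and -0.85 with an offset added before log2. Between the TAC arrays Mcm4 went the other way, with 33.9, 37.4, 33.1 and 58.3, so that STIM1KO TAC was highest, 0.64 above WT TAC. Mcm7 was likewise lowest on STIM1KO sham and highest on STIM1KO TAC, 0.57 above WT TAC. It had 68.9 and 64.6 for WT (sham, TAC) and 64.3 and 95.9 for STIM1KO (sham, TAC). The dim Mcm2, Mcm3 and Mcm5 were below 0 between the TAC arrays, at -0.35, -0.51 and -0.32. Mcm3 was also low between the sham arrays, at -0.57, with 24.6 and 21.4 for WT (sham, TAC) and 16.6 and 15.01 for STIM1KO (sham, TAC). Mcm2 was highest on WT TAC, at 31.9 against 21.1 on WT sham.

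Tyms, the thymidylate synthase that makes the thymine nucleotide, was the replication gene with the largest difference between the sham arrays. Its intensities were 34.7 and 28.5 for WT (sham, TAC) and 16.4 and 21.2 for STIM1KO (sham, TAC). Both STIM1KO arrays lay below both WT arrays, and STIM1KO sham was 2.11-fold below WT sham, a log2 difference of -1.08. With an offset added before log2 the difference was -0.87, under 2-fold.

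The mitosis genes held the largest differences of the list, on dim probes. Top2a, the topoisomerase that untangles chromosomes before they separate, had 19.99 and 19.6 for WT (sham, TAC) and 5.97 and 14.0 for STIM1KO (sham, TAC). STIM1KO sham alone was far from the rest, 3.35-fold below WT sham and 2.35-fold below STIM1KO TAC. With the offset before log2 the first of these differences was -1.15 in place of -1.74. Mki67, the proliferation antigen Ki-67, had 19.7, 21.0, 11.9 and 29.1 in the same order. Here STIM1KO sham was lowest and STIM1KO TAC highest, 2.44-fold apart. Cdk1, the kinase that starts mitosis, had 33.1 and 28.5 for WT (sham, TAC) and 18.5 and 28.8 for STIM1KO (sham, TAC), with a log2 difference of -0.84 between the sham arrays. Ccna2, the cyclin of S and G2 phase, was lowest on STIM1KO sham too, with 8.52, 11.8, 6.75 and 12.1. Birc5, the survivin gene of the chromosomal passenger complex, had 12.8 and 20.4 for WT (sham, TAC) and 10.9 and 16.8 for STIM1KO (sham, TAC), and was above its sham array in both genotypes, by 0.68 and 0.63.

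The other mitosis genes did not all have their lowest value on STIM1KO sham. Aurka, a spindle pole kinase, had 9.95 and 14.3 for WT (sham, TAC) and 12.8 and 8.77 for STIM1KO (sham, TAC), so that TAC was above sham in WT and below it in STIM1KO. Ccnb2, a B-type cyclin, was highest on WT TAC, at 17.3, and lowest on STIM1KO TAC, at 9.76, a log2 difference of -0.83. Plk1, the Polo kinase, lay between 15.4 and 19.8, with STIM1KO TAC lowest. Cdc20, which activates the anaphase-promoting complex, was lower on both STIM1KO arrays, at 21.4 and 20.2, than on WT sham, at 27.9, and WT TAC, at 24.9. Bub1b, a spindle checkpoint kinase, was lowest on WT sham, at 6.81, and highest on STIM1KO TAC, at 10.9. Aurkb, the passenger complex kinase and the only bright gene of the group, had 65.3 and 64.9 for WT (sham, TAC) and 52.7 and 62.4 for STIM1KO (sham, TAC), a range of 1.24-fold with STIM1KO sham lowest.

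Of the 11 mitosis genes 6 were thus lowest on STIM1KO sham (54.5%), 4 on STIM1KO TAC (36.4%) and 1 on WT sham (9.09%). For all genes these shares were 20.7%, 33.6% and 25.1%, so the STIM1KO TAC count was near the share of all genes.

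**Figure D4:**
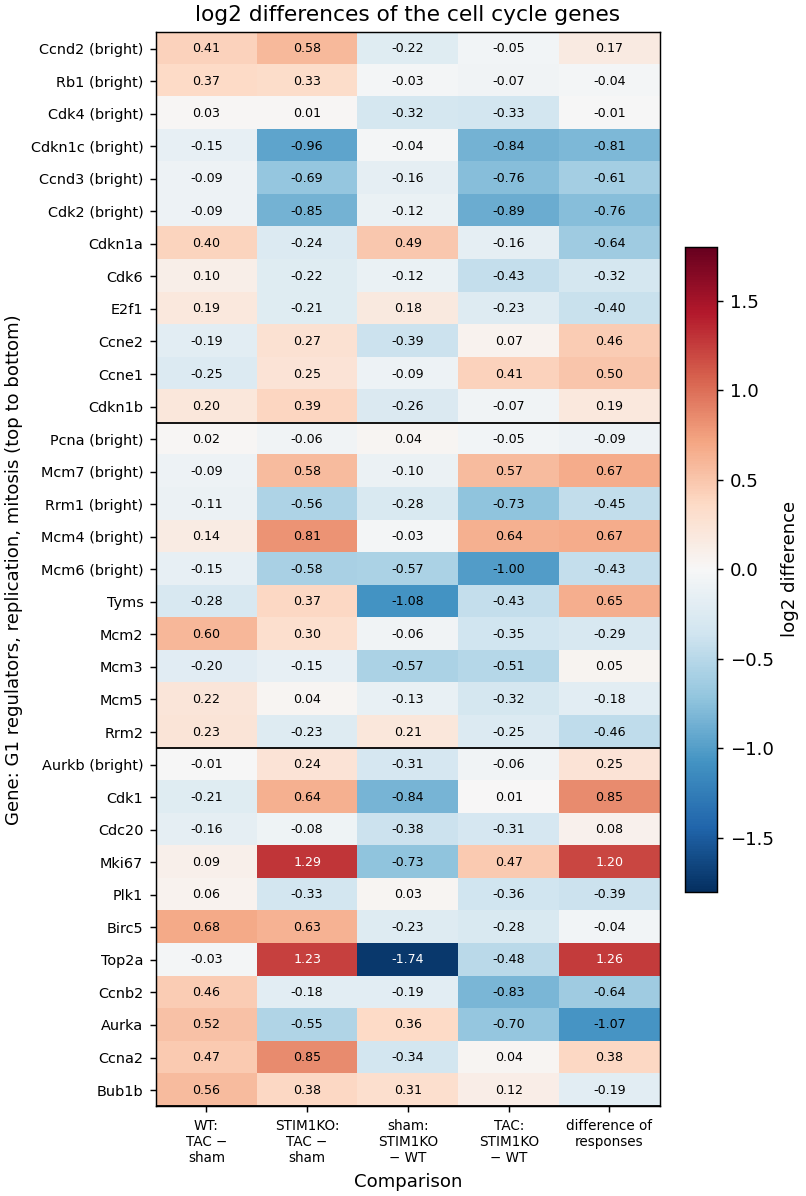
log2 differences of the 33 genes in the 5 comparisons, with red above 0 and blue below 0, ordered by mean level within G1 regulators, replication and mitosis. Top2a and Mki67 stand out in the STIM1KO response to TAC, at 1.23 and 1.29, and Cdkn1c, Cdk2 and Ccnd3 are low in the STIM1KO response and between the TAC arrays.

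The promoters of the 5 genes at 2-fold in at least 1 comparison are shown. These were 5 of 33 genes, beside 13.9% of all genes at that limit, which alone chose them. They differ in the elements known from cell cycle promoters. The sequences are from RefSeq (build GRCm38.p6). The promoter table used here matched 28 of the 36 genes, and Ccnd1, Ccnd2, Ccne2, Cdkn1c, Rb1, Mcm4, Ccna2 and Aurkb were not analysed here. Each is the 250 bases before the annotated start, 5′ to 3′ on the strand of the gene. Capitals mark matches, on either strand, to the CCAAT box (CCAAT), the cell cycle homology region or CHR element (TTTGAA, or in its longer form TTTCGAA) and the E2F site (written as TTCCCGC, in a second form as TTGCCGC, in another as TTCGCGC, and in the last as TTGGCGC).
Top2a (chr11:99024190-99024439, minus strand): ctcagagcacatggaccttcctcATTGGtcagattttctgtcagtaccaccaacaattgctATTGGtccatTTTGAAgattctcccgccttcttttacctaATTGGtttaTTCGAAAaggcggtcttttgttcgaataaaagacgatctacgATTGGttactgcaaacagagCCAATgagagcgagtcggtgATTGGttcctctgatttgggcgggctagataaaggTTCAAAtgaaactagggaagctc
Mki67 (chr7:135716380-135716629, minus strand): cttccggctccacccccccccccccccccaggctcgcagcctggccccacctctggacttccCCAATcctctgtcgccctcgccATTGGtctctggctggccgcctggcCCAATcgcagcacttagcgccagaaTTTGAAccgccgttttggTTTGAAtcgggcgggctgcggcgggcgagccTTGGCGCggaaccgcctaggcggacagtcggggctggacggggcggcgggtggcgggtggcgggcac
Aurka (chr2:172370571-172370820, minus strand): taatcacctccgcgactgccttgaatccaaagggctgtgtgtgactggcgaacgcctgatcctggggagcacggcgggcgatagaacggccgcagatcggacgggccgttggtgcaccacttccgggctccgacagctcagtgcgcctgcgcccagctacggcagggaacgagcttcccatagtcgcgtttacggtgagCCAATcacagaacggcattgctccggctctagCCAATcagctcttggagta
Mcm6 (chr1:128359706-128359955, minus strand): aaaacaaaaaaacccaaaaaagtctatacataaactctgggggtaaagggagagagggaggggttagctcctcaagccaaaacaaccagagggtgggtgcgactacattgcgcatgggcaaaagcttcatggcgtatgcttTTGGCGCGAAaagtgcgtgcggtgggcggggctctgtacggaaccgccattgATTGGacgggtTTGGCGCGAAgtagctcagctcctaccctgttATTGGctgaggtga
Tyms (chr5:30073626-30073875, minus strand): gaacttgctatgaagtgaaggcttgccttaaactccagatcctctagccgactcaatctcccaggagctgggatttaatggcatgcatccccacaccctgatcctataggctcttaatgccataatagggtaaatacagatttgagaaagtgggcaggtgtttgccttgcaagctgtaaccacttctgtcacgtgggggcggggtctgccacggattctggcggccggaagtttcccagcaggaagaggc
Top2a held 6 CCAAT matches, 3 CHR matches and no E2F match. Mki67 held 3, 2 and 1 in that order. Mcm6 held 2 CCAAT matches and 4 E2F matches, the latter as overlapping pairs, since TTGGCGC and the reverse strand of TTCGCGC overlap there. Aurka held 2 CCAAT matches, and these letters were not found in the Tyms window. Over 31 windows of the listed genes, with 2 starts for Ccnd3, Cdkn1a and Mcm7, the CCAAT box was found in 71.0%, against 33.8% of all 32851 promoters in the table. It was in 9 of 10 windows of replication genes, 10 of 11 of mitosis genes and 3 of 10 of G1 regulators. E2F letters were in 32.3% against 7.89% of all promoters, with 6 of 10 among replication genes, and CHR letters in 22.6% against 16.5%, with 5 of 11 among mitosis genes. A match of letters is a description and not a binding site.

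By comparison, WT TAC against WT sham gave the fewest differences at 2-fold. It shares the WT sham array with the comparison of the sham arrays, and each of the first 4 comparisons shares an array with 2 others, so their values are given side by side only. No gene of the list was at 2-fold, where 0.933% of all genes were higher and 1.15% lower. At 1.5-fold, Birc5 (0.68) and Mcm2 (0.596) were higher and none was lower, beside 4.77% and 4.94% of all genes. Of the 33 genes 19 were above 0, beside 47.3% of all genes, and the median was 0.06. For the 12 bright genes the median was -0.05.

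STIM1KO TAC against STIM1KO sham spread wider. Mki67 (1.29) and Top2a (1.23) were 2-fold higher and none was 2-fold lower, where 3.48% of all genes were higher and 2.34% lower. Both are dim, and of 7019 dim genes 400 were higher and 286 lower by that limit. With the offset both calls ended, at 0.99 and 0.77, and with median centring Cdkn1c, at -1.02, was 2-fold lower. At 1.5-fold, 6 genes were higher, adding Ccna2 (0.85), Mcm4 (0.81), Cdk1 (0.64) and Birc5 (0.63), and 3 lower, namely Cdkn1c (-0.96), Cdk2 (-0.85) and Ccnd3 (-0.69). The background at 1.5-fold was 12% higher and 10.9% lower. The median of the 33 genes was 0.04. On the STIM1KO TAC array Top2a and Cdk1 stayed below their WT sham values, whereas Mki67 was above both WT arrays.

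Between the sham arrays, Top2a (-1.74) and Tyms (-1.08) were 2-fold lower in STIM1KO and none was higher, where 1.64% of all genes were lower and 1.03% higher. Cdk1 (-0.84) and Mki67 (-0.73) passed 1.5-fold as well. All 4 were dim, and 6.67% of all genes were lower and 5.05% higher by that limit. Dim genes pass the limits more often: of 7019, 193 were 2-fold lower and 744 were 1.5-fold lower. Between the TAC arrays, Mcm6 (-1.001) was 2-fold lower and none higher, where 2.67% of all genes were lower and 2.71% higher. At 1.5-fold, 7 were lower and 1, Mcm4, higher, beside 11.4% of all genes each way. Of those 7, Mcm6, Cdk2, Cdkn1c, Ccnd3 and Rrm1 were bright, 5 of 12, where 8.22% of bright genes were lower by that limit.

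Subtracting the WT response to TAC from the STIM1KO response gives the difference of responses, which uses all 4 arrays and carries the errors of all. Top2a (1.26) and Mki67 (1.20) were higher by 2-fold and Aurka (-1.07) lower, where 5.16% of all genes were higher and 3.43% lower. All 3 are dim, and of 7019 dim genes 624 were higher and 431 lower by that limit. With the offset all 3 calls ended, at 0.79, 0.92 and -0.72, and with values as deposited Aurka was at -0.96. At 1.5-fold, 6 genes were higher and 6 lower, beside 14.4% and 11.4% of all genes. The 2 genes that were higher had nearly level WT values, at -0.03 and 0.09. The lower one combined 0.52 in WT with -0.55 in STIM1KO.

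The other genes of these pathways were taken from lists made for this purpose. Of 36 further regulators of G1 and S entry 31 had 4 values, of 47 further replication genes 45, and of 50 further mitosis genes 35. Between the TAC arrays 28 of the 35 mitosis genes were below 0, beside 47.8% of all genes, with a median of -0.68. At least 1.5-fold lower were 18, beside 11.4% of all genes. With median centring and with values as deposited 28 were below 0 as well, with a median of -0.65 in each, and with the offset the median was -0.34. The lowest of the 4 values was on STIM1KO TAC for 18 of these genes (51.4%), beside 33.6% of all genes. It was on STIM1KO sham for 8 (22.9%), beside 20.7% of all genes. Among the 16 bright ones 11 were below 0, with a median of -0.27, beside 3424 of all 7020 bright genes. At least 1.5-fold lower were 7 of the 16, beside 8.22% of bright genes. Ncapd2, a subunit of condensin, had 117 and 114 for WT (sham, TAC) and 91.4 and 61.03 for STIM1KO (sham, TAC). Mad2l1, a spindle checkpoint protein, had 36.3, 37.3, 35.6 and 20.2 in the same order. These 2 genes were chosen after their values were seen. Between the sham arrays the same list had a median of -0.16, with 22 of 35 below 0, beside 50.7% of all genes.

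Between the TAC arrays the median of the further replication genes was 0.01, with 22 of 45 below 0, beside 47.8% of all genes. Between the sham arrays it was -0.16, with 27 below 0, beside 50.7% of all genes. Orc5, a subunit of the origin recognition complex, was the only bright gene of the 3 lists at 2-fold in any comparison, with 82.5 and 72.3 for WT (sham, TAC) and 61.5 and 34.98 for STIM1KO (sham, TAC), or -1.05 between the TAC arrays. Among the dim ones, Uhrf1, a partner of the DNA methyltransferase that copies methylation at replication, had 25.03 and 24.5 for WT (sham, TAC) and 10.9 and 15.7 for STIM1KO (sham, TAC), the same order as Tyms with STIM1KO sham lowest, and was also chosen after its values were seen. Between the TAC arrays the median of the further G1 and S entry regulators was -0.19, with 22 of 31 below 0, and of -0.01 between the sham arrays, which became 0.00013 with median centring. For the 10 listed replication genes the TAC arrays gave a median of -0.33, with 8 below 0.

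**Figure D5:**
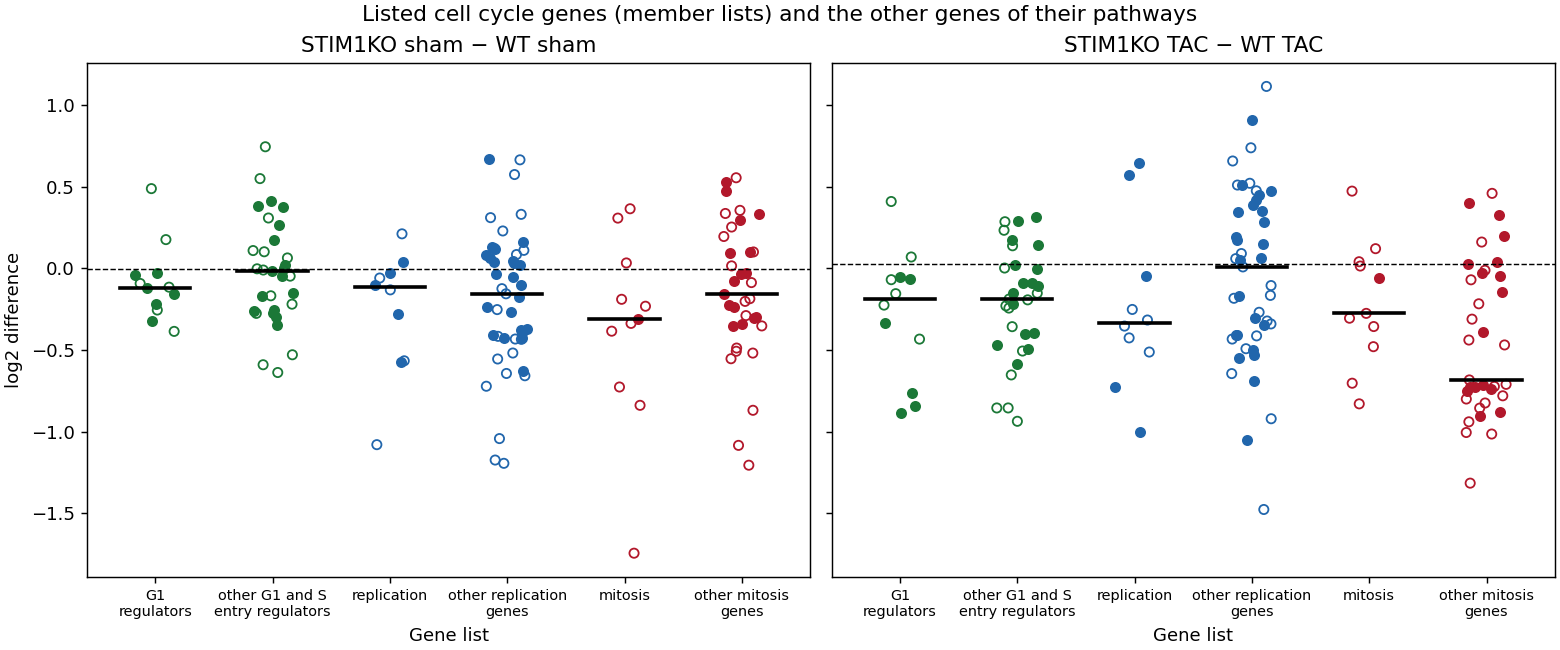
log2 difference of STIM1KO from WT after sham operation (left) and after TAC (right) for each gene of the listed G1, replication and mitosis genes and of the further lists, with filled points for bright genes, open points for dim genes, a bar at each list's median and a dashed line at the median of all genes. The further mitosis genes on the right have their median at -0.68, and the further replication genes at 0.01.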

How the data were processed

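RNA of the left ventricle was copied into amino allyl aRNA and coupled to Cy5, per the labels' protocols. The deposited values are linear intensities, 1 for each probe on each array, with a median near 20.0 on every array. How the authors scanned the arrays, corrected background, scaled them or left cells empty was not stated. Of 23473 probes, 16631 had a gene symbol, and 3947 symbols were updated through synonyms in a RefSeq table of GRCm38.p6. The 19607 probes with 4 values were taken to log2 and quantile-normalized, because the array medians of these probes spread over 0.101 in log2 units. Over all values of each array, the deposited medians were already level. The brightest probe stood for a gene. With 1 array per group no test was run, and precision is limited by the number of arrays. Median centring, values as deposited, an offset of 5.49, the mean over probes, a limit at the 75th percentile and limits of 1.5-fold and 3-fold were tried. The genes named are all listed members, the other lists as counts, and bright genes of the other lists at 2-fold. Ncapd2, Mad2l1 and Uhrf1 were chosen after their values were seen. The list and the other lists were chosen with earlier results of these data known. The steps, in Python 3.11.15 with pandas 2.3.3, were tested on simulated data with the same noise for every gene, bright or dim. That test checked the median of known increases on WT TAC and not the call of any single gene.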

Additional observations from a re-analysis of the deposited data

Results flagged for a closer look

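The response to TAC had opposite signs in the 2 genotypes, with a difference of at least 2-fold, for Top2a and Aurka. For Top2a the difference of responses was 1.26 on the log2 scale, from -0.03 in WT and 1.23 in STIM1KO, and the WT value turned above 0 with values as deposited. For Aurka it was -1.07, from 0.52 in WT and -0.55 in STIM1KO. Both probes are dim, there is 1 array per group, and neither difference was tested. With an offset before log2 both were under 2-fold, at 0.79 and -0.72, and with values as deposited Aurka was at -0.96.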

How the results depend on the processing

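Each gene was read by 1 probe and each group by 1 array, and these limit every value. A value counted as moved when it shifted by more than the SD across genes of its class, divided by the square root of the number of genes in a median. For a single gene the limit was the whole SD, from 0.25 to 0.43 for bright genes and from 0.45 to 0.71 for dim genes. Of 495 single-gene differences under median centring, values as deposited and the offset, 494 did not move by this measure, and Top2a between the sham arrays did. So wide a limit leaves smaller shifts uncounted, such as Top2a and Aurka falling under 2-fold in the difference of responses with the offset. The mean over probes could change no listed gene, since each has 1 probe. With median centring, 1 gene was 2-fold lower in STIM1KO TAC against STIM1KO sham (0 before) and 0 between the TAC arrays, and the medians of the difference of responses were -0.19 for bright genes and -0.15 for all, from -0.06 and -0.04. With values as deposited, the median of all genes of the list in the STIM1KO response was 0.16, and 0 genes were 2-fold lower in the difference of responses and between the TAC arrays. With the offset before log2, 0 genes were 2-fold higher in the STIM1KO response and in the difference of responses, 1 was 2-fold lower between the sham arrays, and 0 were lower in the difference of responses and between the TAC arrays. With the bright limit at the 75th percentile, 5 genes were bright, with medians of 0.028 in the WT response (from -0.05), -0.039 between the sham arrays and -0.067 between the TAC arrays. At 1.5-fold, the counts higher and lower were 2 and 0 for WT, 6 and 3 for STIM1KO in the responses, 0 and 4 between the sham arrays, 1 and 7 between the TAC arrays and 6 and 6 in the difference of responses. At 3-fold, 1 gene, Top2a between the sham arrays, remained, and the other counts were 0. The cause of these changes was not tested, apart from the limits, which set the counts by construction. No paired analysis was possible because each group has 1 array.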
